A study of Mus musculus with 3 samples.

Results

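Ccnd1, which encodes cyclin D1, and LTO1, the gene across from it on the opposite strand, were read as a pair: 2 of the 24028 gene identifiers counted. They are taken by name, but LTO1 was chosen by its measured ratio, as it had stood out in an earlier reading of the same counts as higher in the Tg46 library than in the Lgals7-/- library. Its differences are therefore given as a description, with no test. The libraries came from skin papillomas raised on C57BL/6 mice by a chemical protocol in which the carcinogen DMBA is followed by the tumour promoter TPA. All 3 genotypes received both agents: wild-type mice with their own galectin-7, Lgals7-/- mice lacking that epithelial lectin, and Tg46 mice carrying a galectin-7 transgene under the keratin 14 promoter, which is active in basal keratinocytes. Each genotype gave 1 library from 3 pooled tumours, so there is no replicate, no p-value is given, and every ratio compares a pair of libraries. Ages were not given.

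Cyclin D1 is made when growth signals reach a resting cell. It binds the kinases CDK4 and CDK6, which phosphorylate the retinoblastoma protein and so release E2F transcription factors that drive entry into DNA synthesis. In mouse skin it accumulates early during chemical carcinogenesis. LTO1, also called Oraov1 for its overexpression in human oral cancer, lies beside cyclin D1 in a segment that is often amplified there. Its protein works with YAE1 to deliver an iron-sulphur cluster to ABCE1, the ATPase that recycles ribosomes.

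In the mm10 genome LTO1 (Entrez 72284) spans chromosome 7, 144915100 to 144931701, on the plus strand, and Ccnd1 (Entrez 12443) spans 144929931 to 144939925 on the minus strand, in the GENCODE M21 annotation. The genes point at each other and meet at their ends. Their exons share 1100 bases, which is 15.6% of the 7061 exon bases of LTO1 and 23.4% of the 4709 of Ccnd1. One stretch of 818 bases (144929931 to 144930748) is untranslated in both genes. The other, of 282 bases (144931420 to 144931701), lies in the untranslated end of Ccnd1 and holds 105 coding bases of LTO1. Each stretch belongs to 1 of the 8 annotated LTO1 transcripts. The sources used here do not say whether the counting used strand or which transcripts it used, so a read from a shared base cannot be assigned to either gene.

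**Figure D1:**
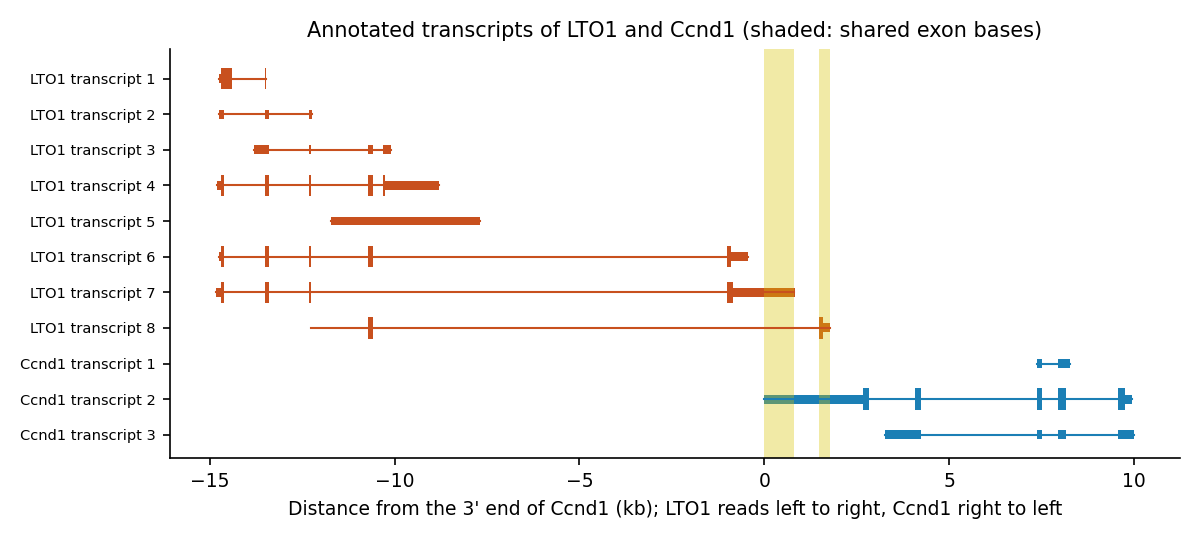
Annotated transcripts of LTO1 (8) and Ccnd1 (3), drawn by distance in kb from the 3′ end of Ccnd1. Tall boxes are coding, low boxes untranslated or non-coding exons, lines introns, and shading marks the 1100 exon bases that both genes share. Only LTO1 transcripts 7 and 8 reach the shaded bases.

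LTO1 transcripts end in alternative last exons, and these decide whether a transcript reaches Ccnd1. The first 30 coding bases of a pair of them are shown because reads holding them would come from outside the shared bases. They come from GENCODE M21 transcripts (mm10, plus strand, 5′ to 3′), and gene-level counts do not separate them.
LTO1 last exon of a transcript that stops short of Ccnd1, chr7:144919610-144919639: ctgtgctcactgctcaacgtgcagccagac
LTO1 last exon whose longer form runs 818 bases into Ccnd1, chr7:144928925-144928954: taccactctgctgcactggctgcctggctg
The first lies in an exon of 1525 bases, of which 66 are coding. The second opens an exon that is 571 bases long in a transcript ending before Ccnd1 and 1824 bases long in the one that runs into it.

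The promoter of LTO1 is also shown, since LTO1 was the member whose counts differed most between libraries. These are the 250 bases before its start in RefSeq (GRCm38.p6, plus strand, 5′ to 3′), with the matches to the motifs below in capitals. The promoter table had 1 entry for LTO1 and 0 for Ccnd1.
LTO1 promoter, chr7:144914850-144915099: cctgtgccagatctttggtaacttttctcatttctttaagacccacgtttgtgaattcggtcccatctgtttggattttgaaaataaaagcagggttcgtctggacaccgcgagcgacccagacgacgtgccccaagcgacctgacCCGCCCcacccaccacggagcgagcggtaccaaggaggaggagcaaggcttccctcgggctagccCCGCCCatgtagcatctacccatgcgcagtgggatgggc
On both strands 7 motifs were searched. The GC box (GGGCGG, or CCGCCC on the other strand) matched 2 times, from 104 and 39 bases before the start, and is held by 32.7% of 32851 promoter windows of this length. No match was found for the AP-1 site TGACTCA (in 4.46% of windows), the CCAAT box CCAAT (33.8%), the TATA box TATAAA (12.4%), the E box CACGTG (6.02%), an E2F site TTTCGCGC (0.256%) or the cyclic AMP response element TGACGTCA (1.55%). The matched motifs did not overlap. The window held 16 CG dinucleotides against a median of 6 over all windows.

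The libraries were shallow, with 172011 counts for wild-type, 312600 for Lgals7-/- and 354499 for Tg46. That order is kept wherever 3 values follow each other. A gene at 0 counts could stand at up to 17.4, 9.11 and 8.95 CPM (TMM-scaled counts relative to library size), the level of 3 counts. Intervals and floors are at 95% and take in counting error alone: the reads carry no molecular identifiers, so they are not independent molecules. Lgals7 itself had 0, 2 and 4 counts, too few to check the genotypes. Keratinocyte markers, which define the labelled tissue, were present in every library, with 90, 210 and 249 summed counts for 5 basal and 77, 316 and 337 for 4 suprabasal ones. Single markers were low. Krt5 held 7, 20 and 32 counts and Krt14 20, 81 and 95, fewer than the 207, 257 and 624 at the melanocyte marker Pmel. Exons of Pmel face those of Dgka and Cdk2, and the melanocyte markers Dct and Tyr held 1 to 8 counts. These counts therefore do not rank the cell types. In bulk RNA, fewer cells of a type and less RNA per cell cannot be told apart.

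Counts at the Ccnd1 identifier differed little between the papillomas. Because the use of strand is not known, this does not show that cyclin D1 RNA differed little. Wild-type gave 18 counts, Lgals7-/- 35 and Tg46 47, or 104 CPM (Poisson interval 61.7 to 165), 106 CPM (74.1 to 148) and 140 CPM (103 to 186). The 3 intervals overlapped. The ratio of Lgals7-/- over wild-type was 1.01 (0.563 to 1.91), without a stable direction under other scalings. Tg46 stood at 1.32 times the wild-type level (0.767 to 2.46) and 1.31 times that of Lgals7-/- (0.834 to 2.10). Each interval included 1, and with upper bounds from 1.91 to 2.46 higher ratios up to those bounds were not excluded at this depth. Among 1189 genes with at least 100 summed counts, the highest and lowest libraries lay closer together in 16.8% of genes than in Ccnd1. Its count ranked at percentile 91.4, 93.9 and 95.8 of all identifiers.

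Counts at the LTO1 identifier were high in every library and highest in Tg46. Wild-type gave 86 counts, Lgals7-/- 110 and Tg46 560, or 498 CPM (398 to 615), 334 CPM (275 to 403) and 1671 CPM (1535 to 1815). The Tg46 interval lay far above both others, which overlapped at their edges. LTO1 made up 0.158% of all Tg46 counts. Per kb of exon it stood at 70.5, 47.3 and 237 CPM, against 22.1, 22.6 and 29.8 for Ccnd1. With every library thinned to 172011 counts, LTO1 held 86, 57 and 265 counts and Ccnd1 18, 22 and 27.

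**Figure D2:**
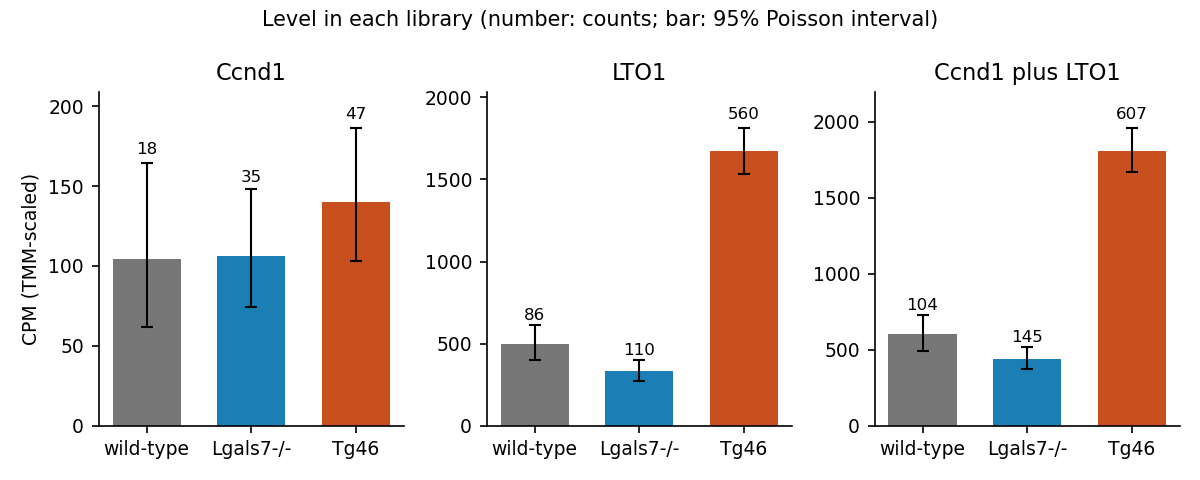
Level of Ccnd1, LTO1 and their sum in each library in TMM-scaled CPM, each panel on its own axis from 0. Bars are single libraries, lines 95% Poisson intervals and numbers raw counts. LTO1 reached 560 counts in Tg46 against 86 and 110, whereas the 3 Ccnd1 intervals overlap.

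In Tg46 over Lgals7-/- the ratio of LTO1 was 4.98 (4.07 to 6.19), and 1 of the 2 members was at least 2-fold higher. Of 12940 genes compared, 14.0% were at least 2-fold higher and 12.8% lower in this comparison, the one through which LTO1 was noticed. Of the 12940 genes 200, LTO1 included, had a ratio as large. Among the genes with at least 100 summed counts 3 others did. In Tg46 over wild-type the ratio of LTO1 was 3.34 (2.67 to 4.26), and again 1 of 2 members was at least 2-fold higher, where 25.6% of all genes were higher and 18.2% lower. This comparison shares the Tg46 library with the one before. In it 1839 of the 12940 genes, LTO1 included, had a ratio as large. Of the 1189 genes with at least 100 summed counts, 55 did. In Lgals7-/- over wild-type the ratio of LTO1 was 0.671 (0.502 to 0.901), and 0 of 2 members passed 2-fold in either direction, where 25.3% of genes were higher and 18.6% lower.

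Well counted genes as a class were also higher in Tg46. Of the 1189 genes with at least 100 summed counts, 14.9% were at least 2-fold higher and 1.77% lower in Tg46 over Lgals7-/-, with a median log2 ratio of 0.28. Those with an exon across from another gene's exon, as LTO1 has, were higher in 22.7% of 507 cases, and lower in 0.986%, with a median of 0.55. Those without one were higher in 9.09% of 682 cases and lower in 2.35%, with a median of 0.11. LTO1, at a log2 ratio of 2.32, lay well beyond both medians, and Ccnd1, at 0.39, lay between them. In Tg46 over wild-type 18.6% of the 1189 genes were at least 2-fold higher and 4.88% lower. Those with a facing exon were higher in 23.1% and lower in 3.16%, and those without in 15.2% and 6.16%. A gene could reach 100 summed counts through Tg46 alone, the library with the most counts.

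**Figure D3:**
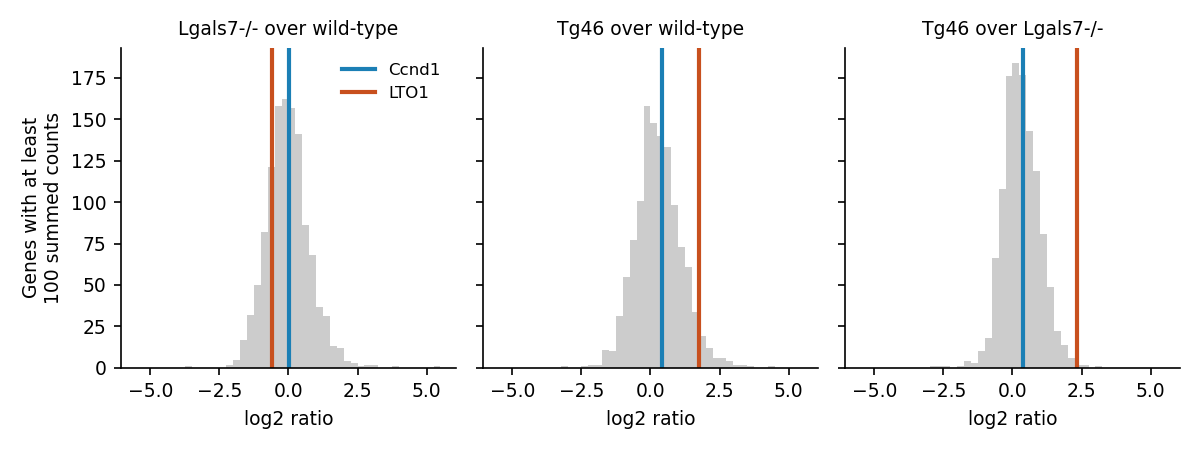
Histograms of the log2 ratio in each comparison over the 1189 genes with at least 100 summed counts, with Ccnd1 and LTO1 as lines. Ccnd1 sits near the middle in each panel, and LTO1 sits in the upper tail of both Tg46 panels.

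Because shared bases could move reads between the genes, the pair was also read as 1 unit. The sum of Ccnd1 and LTO1 was 104, 145 and 607 counts, or 602, 440 and 1811 CPM. Tg46 stood apart from both other libraries in the sum as it did in LTO1. In Tg46 the sum was 4.10 times its level in Lgals7-/- (3.42 to 4.96) and 3.00 times that in wild-type (2.44 to 3.74). For Lgals7-/- over wild-type the summed ratio was 0.731 (0.565 to 0.951), an interval that took in 1 under 4 of 7 alternatives. LTO1 supplies most counts of the sum in every library and was chosen by its ratio, so the sum restates that difference and adds no support to it.

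The split of the pair also differed. Because it rests on the LTO1 counts by which LTO1 was chosen, it is a description and adds no support. LTO1 took 82.7% of the pair's counts in wild-type (exact Clopper-Pearson interval 74.0 to 89.4), 75.9% in Lgals7-/- (68.1 to 82.6) and 92.3% in Tg46 (89.8 to 94.3). The Tg46 interval lay above both others, which overlapped. For each Ccnd1 count there were 4.78, 3.14 and 11.9 LTO1 counts. This quantity needs no scaling between libraries, and it was 3.79 times as high in Tg46 as in Lgals7-/- (conditional exact interval 2.26 to 6.30) and 2.52 times as high as in wild-type (1.30 to 4.61). Between Lgals7-/- and wild-type it differed by a factor of 0.666 (0.327 to 1.29), within counting error.

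Other genes that face each other across strands were set beside the pair. There were 576 pairs with overlapping opposite-strand exons, at least 100 summed counts and at least 20 in each gene, and a gene can be in several. LTO1 and Ccnd1 share more bases than 79.2% of them, 1100 against a median of 391. Their split, 88.3% of counts at the fuller gene over all libraries, was more uneven than in 86.8% of pairs. In the pairs with the most summed counts, 1810014B01Rik held 95.5% against Hsp90b1, Tsix 88.8% against Xist and Syn3 98.4% against Timp3. Which strand the counts report was not tested. From Lgals7-/- to Tg46 the within-pair ratio of LTO1 and Ccnd1 moved by 1.92 on the log2 scale. The median over pairs was 0.68 regardless of direction, and 44 of the 576 pairs, this one included, moved as far. This too rests on the counts by which LTO1 was chosen. By summed counts 5.56% of pairs were at least 2-fold higher in Lgals7-/- over wild-type, 15.5% in Tg46 over wild-type and 13.5% in Tg46 over Lgals7-/-. In the last, by which LTO1 was chosen, 2 pairs, this one included, had a log2 ratio as high as 2.04, which is a description only. From wild-type to Tg46 the within-pair ratio moved by 1.34, and 189 pairs moved as far.

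**Figure D4:**
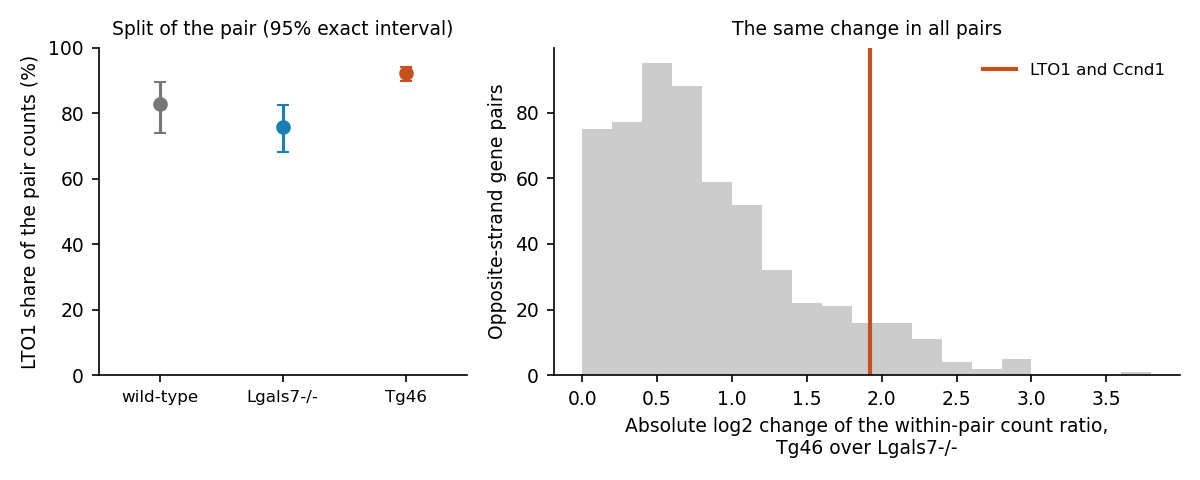
Left, LTO1 share of the pair's counts in each library, in percent with 95% exact intervals. Right, absolute log2 change of the within-pair count ratio from Lgals7-/- to Tg46 over 576 opposite-strand pairs; LTO1 and Ccnd1, at 1.92, lie in the upper tail with 44 pairs at or beyond them.

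The genes nearest in pattern were found over all 3 libraries by the distance between centred log2 CPM values, among 4152 genes with at least 50 summed counts. Over 3 points this is a description only. Nearest to LTO1, at distances of 0.16 to 0.26, were R74862, 2310002F09Rik, Sfn, Ccdc85b and Rexo5. Sfn, the epithelial 14-3-3 protein sigma, had 5, 8 and 43 counts. Ccdc85b, whose exons face those of the AP-1 gene Fosl1, held 58, 90 and 370. Nearest to Ccnd1, at distances of 0.0099 to 0.034, were Serinc4, Cept1, Fbxl22, Phf12 and Pdzd4. The distance between the members was 1.39, and 899 genes were nearer to LTO1 than Ccnd1 was.

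Of the other D-type cyclins and the partner kinases of cyclin D1, Ccnd2, Ccnd3 and Cdk6 did not pass 2-fold in Tg46 over Lgals7-/-. Ccnd3, whose exons face those of Bysl, had 2, 31 and 23 counts. The wild-type library was low, and Ccnd3 was 6.61-fold higher in Lgals7-/- (2.07 to 70.2) and 4.85-fold higher in Tg46 (1.46 to 51.9). Cdk4, whose exons face those of Tspan31, held 2, 13 and 4 counts, and its ratio in Tg46 over Lgals7-/- was 0.327 (0.0718 to 0.978). Ccnd2 held 10, 28 and 22 and Cdk6 6, 15 and 20. Per kb of exon Ccnd1 was the fullest of the D-type cyclins in every library, with 22.1, 22.6 and 29.8 CPM against 6.15, 9.04 and 6.98 for Ccnd2 and 1.32, 10.7 and 7.82 for Ccnd3. Of these 4 genes, 2 were at least 2-fold higher and 0 lower in Lgals7-/- over wild-type, 1 and 0 in Tg46 over wild-type, and 0 and 1 in Tg46 over Lgals7-/-. Of all genes compared, 25.3%, 25.6% and 14.0% were higher and 18.6%, 18.2% and 12.8% lower in this order of comparisons, which the lists below keep. Called counts in the lists are few, and none is read as differing from those shares. Their median log2 ratios were 1.01, 0.42 and -0.41, against 0.10, 0.11 and -0.03 over all genes compared.

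CDK inhibitors restrain the cyclin D kinases. Only 2 of 7 reached 10 counts in any library. Cdkn2b, the inhibitor p15, had 1, 6 and 16 counts and had a ratio of 2.27 (0.382 to 145) in Lgals7-/- over wild-type, 5.67 (1.28 to 346) in Tg46 over wild-type and 2.49 (0.974 to 8.17) in Tg46 over Lgals7-/-. The first and last of these intervals included 1. Cdkn1b held 7, 16 and 9. Cdkn2c and Cdkn2d stayed at 9 counts or fewer. Cdkn2a, outside the rule for named genes and picked after its values were seen, went the other way from Cdkn2b, with 8, 0 and 1 counts. Its ratio interval was 0 to 0.307 in Lgals7-/- over wild-type and 0.00145 to 0.481 in Tg46 over wild-type. The median log2 ratios of the 2 compared were 0.70, 0.94 and 0.25.

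Among 12 measured members of the RB family and E2F factors, 3, 4 and 0 were at least 2-fold higher (all genes 25.3%, 25.6% and 14.0%) and 1, 1 and 0 lower (all genes 18.6%, 18.2% and 12.8%), with median log2 ratios of 0.29, 0.67 and 0.23. Rbl2, the retinoblastoma relative p130, whose exons face those of Aktip, had 40, 92 and 136 counts, or 232, 279 and 406 CPM. E2f5, facing Rbis, held 21, 44 and 48 and Tfdp2, an E2F partner, 11, 27 and 32. E2f4, a mostly repressive E2F, had 0, 21 and 28 counts. With the wild-type library set at the floor of 3 counts, its ratio was 3.67 in Lgals7-/- and 4.81 in Tg46. The lower bounds of its exact intervals over wild-type, which take in the counting error of both libraries, were 2.73 and 3.66. Rb1 itself, which faces Lpar6 and Rcbtb2, falls outside the rule for named genes and was picked after its values were seen. It had 18, 15 and 14 counts, or 104, 45.6 and 41.8 CPM. Its ratio was 0.440 (0.205 to 0.919) in Lgals7-/- over wild-type and 0.404 (0.185 to 0.853) in Tg46 over wild-type.

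Among 12 measured cyclins, kinases and replication genes of the step into DNA synthesis, 2, 3 and 2 were at least 2-fold higher (all genes 25.3%, 25.6% and 14.0%) and 2, 1 and 1 lower (all genes 18.6%, 18.2% and 12.8%), with median log2 ratios of -0.06, 0.17 and 0.42. Ccna2, cyclin A2, had 72, 110 and 304 counts, or 417, 334 and 907 CPM. It was 2.71-fold higher in Tg46 than in Lgals7-/- (2.18 to 3.41). Ccne2, cyclin E2, had 132, 86 and 214 counts, or 764, 261 and 639 CPM, and was highest in wild-type and lowest in Lgals7-/-. Its ratio was 0.343 (0.258 to 0.452) in Lgals7-/- over wild-type, 0.835 (0.670 to 1.05) in Tg46 over wild-type and 2.44 (1.89 to 3.18) in Tg46 over Lgals7-/-. Both have an exon facing another gene, Exosc9 for Ccna2 and Ints8 for Ccne2, so their counts carry the same uncertainty as LTO1. Mki67, the proliferation marker Ki-67, has no such exon, but the use of strand in counting is not known for it either. It held 26, 49 and 71 counts, with a ratio of 1.42 (0.975 to 2.09) in Tg46 over Lgals7-/-. Mcm7, a replication helicase subunit facing Ap4m1 and Cops6, held 12, 25 and 28.

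Among 15 measured regulators upstream of cyclin D1, 3, 3 and 0 were at least 2-fold higher (all genes 25.3%, 25.6% and 14.0%) and 0, 1 and 3 lower (all genes 18.6%, 18.2% and 12.8%), with median log2 ratios of 0.52, 0.22 and -0.03. Tcf7l2, a Wnt-pathway factor, had 17, 48 and 39 counts. Lef1 held 12, 26 and 31 and the AP-1 gene Fosl2 12, 26 and 28. Outside the rule for named genes, the 3 lower in Tg46 over Lgals7-/- were Tcf7l1 (5, 20 and 7 counts), Nfkb1 (7, 17 and 8) and Jun (4, 12 and 1). The interval of Nfkb1 included 1 (0.173 to 1.13). The 3 higher in both comparisons over wild-type were Tcf7 (3, 17 and 18 counts), Ets1 (2, 11 and 16) and Hras (1, 12 and 10). Each of their intervals over wild-type included 1.

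Among 10 measured genes of cyclin D1 turnover, 1, 2 and 0 were at least 2-fold higher (all genes 25.3%, 25.6% and 14.0%) and 2, 3 and 0 lower (all genes 18.6%, 18.2% and 12.8%), with median log2 ratios of 0.16, 0.36 and 0.10. Gsk3b, the kinase that marks cyclin D1 for export and degradation, had 2, 44 and 26 counts. It was 9.34-fold higher in Lgals7-/- than in wild-type (3.01 to 98.3). Ambra1, the substrate receptor that directs cyclin D to ubiquitylation, held 21, 28 and 18, with a ratio of 0.444 (0.222 to 0.871) in Tg46 over wild-type. Usp2, a deubiquitylase of cyclin D1, held 7, 24 and 27.

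Among 9 measured genes of cytosolic iron-sulphur assembly and LTO1 partners, 2, 1 and 0 were at least 2-fold higher (all genes 25.3%, 25.6% and 14.0%) and 0, 1 and 3 lower (all genes 18.6%, 18.2% and 12.8%), with median log2 ratios of 0.06, 0.52 and -0.03. Mms19, a subunit of the targeting complex whose exons face those of Zdhhc16, had 29, 58 and 116 counts and was 1.96-fold higher in Tg46 than in Lgals7-/- (1.42 to 2.74). Ciao1, its partner in that complex, held 24, 33 and 33. Ndor1, an electron donor of the pathway whose exons face those of Tmem203, held 10, 15 and 5. Outside the rule for named genes, Abce1, the client of LTO1, held 4, 8 and 12 counts and Yae1d1, its partner, 3, 6 and 3, both picked for that role.

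**Figure D5:**
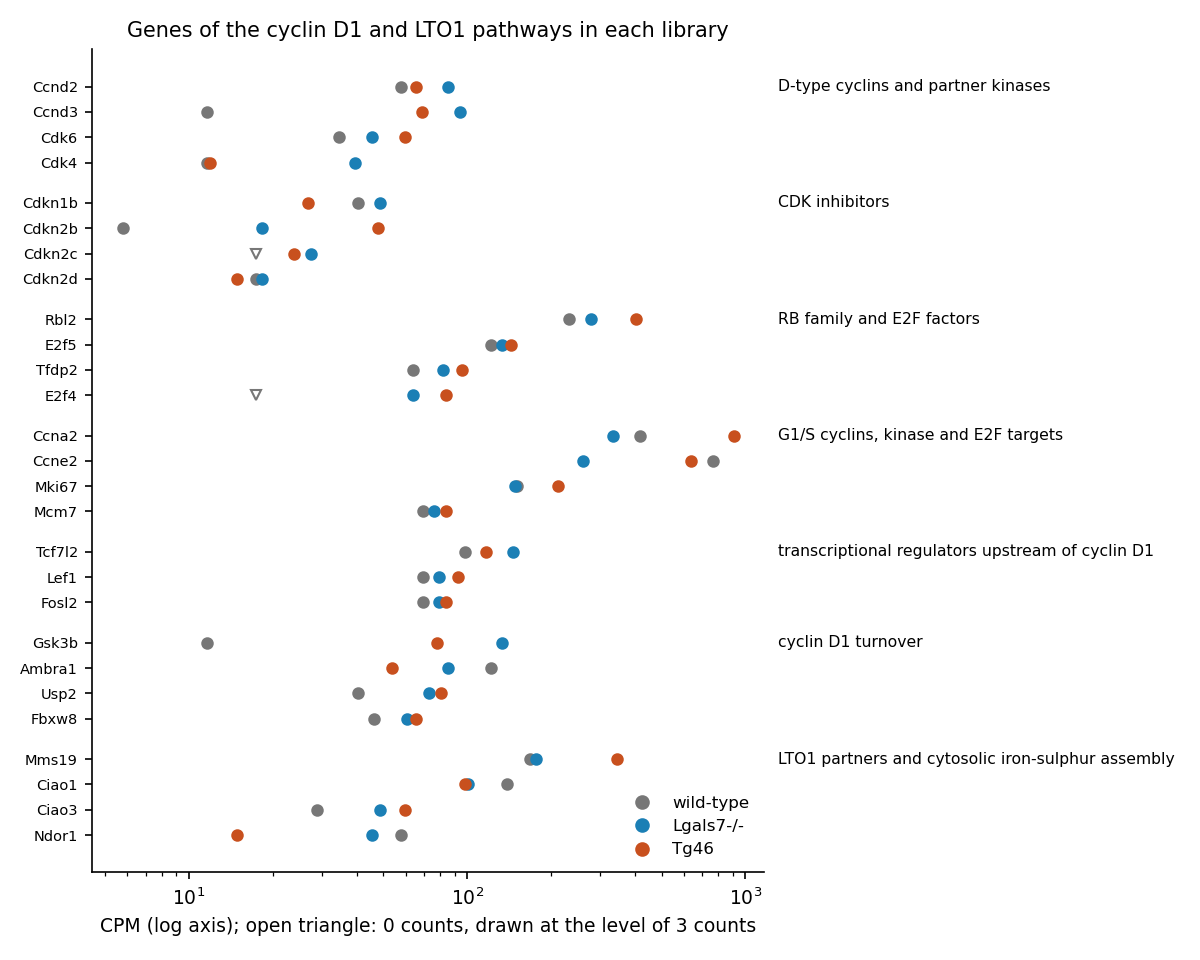
CPM on a log axis of up to 4 of the fullest genes in each list in wild-type (grey), Lgals7-/- (blue) and Tg46 (orange), 1 library each. Open triangles mark 0 counts, drawn at the level of 3 counts. Ccna2, Ccne2, Rbl2 and Mms19 hold the most counts, and each of the 4 has an exon facing another gene.

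The 13 other identifiers within 500 kb of the pair did not all differ in one direction. Of the 6 that reached 10 counts, 1, 2 and 2 were at least 2-fold higher (all genes 25.3%, 25.6% and 14.0%) and 2, 2 and 1 lower (all genes 18.6%, 18.2% and 12.8%), with median log2 ratios of -0.32, 0.52 and 0.15. Shank2, a scaffold gene 489 kb from LTO1, had 9, 17 and 49 counts and was 2.78-fold higher in Tg46 than in Lgals7-/- (1.60 to 5.24). Ppfia1, a liprin 361 kb away, went the other way, with 30, 38 and 17 counts and a ratio of 0.446 (0.233 to 0.798). Cttn, the actin-binding protein cortactin, held 3, 38 and 39, and Tpcn2, an endolysosomal channel on the Ccnd1 side, 9, 35 and 21. Fadd, a death-receptor adaptor picked after its values were seen, held 9, 5 and 32, with a ratio of 5.80 (2.43 to 20.7). The nearest identifier, the small RNA gene Bc1 that lies 0.477 kb before LTO1, had 0 counts in every library, and the growth factor genes Fgf3, Fgf4 and Fgf15 held 5 counts or fewer.

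Like LTO1, the sums of basal, suprabasal and hyperproliferative keratinocyte, melanocyte, fibroblast and adipocyte markers were highest in Tg46. The other sums were highest in another library. The basal markers summed to 521, 638 and 743 CPM and the suprabasal ones to 446, 960 and 1006 CPM. The 4 hyperproliferative keratins (Krt6a, Krt6b, Krt16, Krt17) summed to 145, 386 and 636 CPM, with 0 of 4 at 0 counts. The 3 melanocyte markers summed to 1215, 826 and 1910 CPM, nearly all at Pmel, whose exons face those of Dgka and Cdk2. Dct and Tyr held 1 to 8 counts. The 5 hair follicle markers summed to 1175, 4086 and 785 CPM, highest where LTO1 was lowest, mostly at Tchh with 160, 1202 and 209 counts. Fibroblast markers summed to 365 to 418 CPM, endothelial to 143 to 149, leukocyte to 176 to 270.4, Langerhans cell to 44.8 to 75.2, muscle to 106 to 133 and adipocyte to 11.6 to 47.7, the last with Plin1 at 0 counts in wild-type. The part of these markers in the difference at LTO1 was not tested.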

How the data were processed

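The authors deposited whole-number read counts per Entrez identifier for 3 libraries, with mm10 as genome build, per the submitters' processing notes. Per the labels' protocols RNA of 3 pooled papillomas was extracted with TRIzol and RNeasy columns and made into libraries with an Illumina kit. The sources used here do not give aligner, counter, annotation or use of strand. Of the 24028 identifiers, a RefSeq symbol was found for 23968 and a GENCODE M21 exon model for 21122, whose merged exons gave lengths. Counts were scaled with TMM factors (edgeR 4.0.16, R 4.3.3; 1.00, 1.05 and 0.945 for wild-type, Lgals7-/- and Tg46) over the 12940 genes with at least 10 counts in 1 library or more. Ratios had 0.5 counts added and carry exact Clopper-Pearson intervals from the 2 counts compared. The ratio and its interval were tested on simulated counts with Poisson error alone, the error that the interval assumes. That check cannot show how the interval holds under variation between tumours or animals. A gene counts as higher or lower past 2-fold. No model with a dispersion could be fitted, as no genotype has a replicate. A member or list gene could reach 10 counts through the library in which it was high.

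The members, lists and rules were chosen with earlier results of these data known. Named genes are the members, the 4 fullest genes of each list (1 of them is not reported here) and the 5 nearest in pattern to each member. Of the neighbourhood list, Ighmbp2 and Cpt1a lie on chromosome 19, and Dhcr7 and Nadsyn1 over 500 kb away, so these were left out. Alternatives were other scalings (DESeq2 1.42.0 size factors among them), filters, thresholds, added counts and thinned libraries. TMM factors over all identifiers were added after seeing the data. Intervals came from scipy 1.17.1 under Python 3.11.15 (pandas 2.3.3, numpy 2.4.6).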

Additional observations from a re-analysis of the deposited data

How the results depend on the processing

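No paired analysis was possible because no genotype has a second library. All 69 recomputed member, sum and split values stayed within the counting interval of the reported value. LTO1 ranged from 4.47 to 5.10 in Tg46 over Lgals7-/-, from 3.14 to 3.94 in Tg46 over wild-type and from 0.653 to 0.778 in Lgals7-/- over wild-type, where with upper-quartile factors the interval included 1 (0.582 to 1.04). Ccnd1 ranged from 0.913 to 1.29 in Lgals7-/- over wild-type, so that ratio has no stable direction. The summed ratio's interval there included 1 with upper-quartile factors (to 1.10), TMM factors over all identifiers (to 1.05, chosen after seeing the data), thinned libraries (to 1.09) and totals without the 50 fullest genes. With 5 counts added the median log2 ratio of all genes compared turned from 0.10 to -0.21 in Lgals7-/- over wild-type and from 0.11 to -0.22 in Tg46 over wild-type. Among scalings it moved with upper-quartile factors from 0.10 to 0.31 in Lgals7-/- over wild-type and from 0.11 to 0.35 in Tg46 over wild-type, and with total counts from -0.03 to -0.18 in Tg46 over Lgals7-/-. There 1808 genes were higher and 1653 lower, and 1388 and 2162 with total counts.

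Of 66 recomputed counts of genes past 2-fold, 28 differed by over 1.5 times, listed here for Lgals7-/- over wild-type first, then for Tg46 over wild-type and over Lgals7-/-. Without a filter 6233, 6292 and 4285 were higher and 4894, 4679 and 3863 lower. A minimum of 100 counts compares fewer genes by construction, of which 31, 108 and 104 were higher and 20, 6 and 4 lower. At 4-fold 1534, 1443 and 358 were higher and 746, 783 and 329 lower. With the interval also excluding 1, 1715, 1768 and 1091 were higher, and 1000 lower in the last comparison. With 5 counts added 584, 658 and 863 were higher, and 829 lower in the last. In thinned libraries 1968 and 1951 were higher than in wild-type.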
